A study of Mus musculus with 6 samples.

Results

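Transcripts of the interleukin-1 (IL-1) family were examined as a set of 10 genes among the 54532 genes measured in mouse cervical spinal cord. The set was chosen by name, with earlier results of these data known, as the main ligands, the decoys and antagonists, and the receptors of the family. It holds the ligands Il1a, Il1b, Il18 and Il33, the receptor antagonist Il1rn, the decoy Il18bp, and the receptor chains Il1r1, Il1rap, Il1rl1 and Il18r1. RNA was sequenced from 3 imiquimod-treated and 3 vehicle-treated C57BL/6 mice, with 1 library per mouse. The imiquimod mice had 50 mg of a cream with 5% imiquimod, an agonist of Toll-like receptor 7, spread daily on the shaved neck for 2 days, which sets up a psoriasis-like dermatitis. The vehicle mice had the same amount of cream without imiquimod and were shaved in the same way. The cream was applied to skin and whole cord was taken, so the libraries mix neurons, glia, vessels, blood and any attached meninges. Sex and age are not stated in the labels.

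IL-1 family cytokines are alarm signals released by stressed or infected tissue. IL-1 alpha and IL-1 beta bind the receptor chain encoded by Il1r1, IL-18 binds that of Il18r1, and IL-33 binds ST2, the product of Il1rl1. The IL-1 and IL-33 receptors share the accessory chain encoded by Il1rap, and all of these receptors signal through MyD88 and IRAK kinases to NF-kB. Pro-IL-1 beta and pro-IL-18 are cut by caspase-1 in an inflammasome. The family is held in check by secreted competitors: the IL-1 receptor antagonist occupies the receptor without signalling, and the IL-18 binding protein captures IL-18. In mouse spinal cord IL-33 is mainly a nuclear protein of oligodendrocytes and astrocytes.

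Levels are given as FPKM, the fragments of a gene per kilobase of its exons at a common scaled library size, so they can be compared between genes. The whole fragments behind each value were recovered from FPKM and exon length, and libraries held 21242427 to 23200994 fragments in imiquimod cords and 18174421 to 20672891 in vehicle cords. A gene's floor was taken as 3 fragments. Ratios of fragments are given at equal depth, where depth is the scaled library size implied by FPKM and not the fragments recovered. That size was 20620441 to 23466216 in imiquimod and 17387044 to 19557375 in vehicle cords. The exact 95% intervals of the ratios hold counting error and no difference between animals. Gene differences were tested with limma across the 16513 genes whose mean reached 0.5 FPKM in one group or both, with Benjamini-Hochberg adjustment and a threshold of 0.05. Imiquimod replicate 3 stood apart in Gapdh, at 26.4 FPKM against 1.56 to 2.15 in the other libraries. Defining markers of cord tissue were present in every library: summed FPKM was 506 to 569 in imiquimod and 622 to 627 in vehicle cords for 9 neuronal markers (1 higher, 2 lower), and 5202 to 6749 against 7954 to 8504 for 8 oligodendrocyte markers (1 lower, none at 0). Beside the counts of markers called in this and other lists, 8.74% of all genes tested were called higher and 5.34% lower.

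Il18bp and Il1rn rose, and Il33, the most abundant ligand transcript, fell. Of the 10 genes, 6 could be tested. Il18bp and Il1rn were higher in imiquimod cords, against 8.74% of all genes tested that were called higher. Il33 was lower, against 5.34% called lower (14.1% in either direction), and Il18, Il1r1 and Il1rap did not pass. Il1rn entered the test only through the imiquimod group, because its vehicle mean lay below the filter. With no filter all 10 genes were tested and the same 3 were called, in a background of 3.4% higher and 1.6% lower (5% together). The groups did not overlap for 6 of the 10 genes, with Il18bp, Il1rn, Il1b and Il18r1 higher and Il33 and Il1rap lower in imiquimod cords. Among 31740 genes above 0 in at least 1 library, 24.1% had groups that did not overlap, 12.5% with imiquimod above and 11.6% with imiquimod below. Without imiquimod replicate 3, the library that stood apart in Gapdh, the log2 change was 3.15 for Il18bp (limma adjusted p = 0.00311), 2.35 for Il1rn (0.091) and -0.45 for Il33 (0.0446). In bulk tissue, a change in the number of cells of a type and a change in RNA per cell cannot be told apart.

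**Figure D1:**
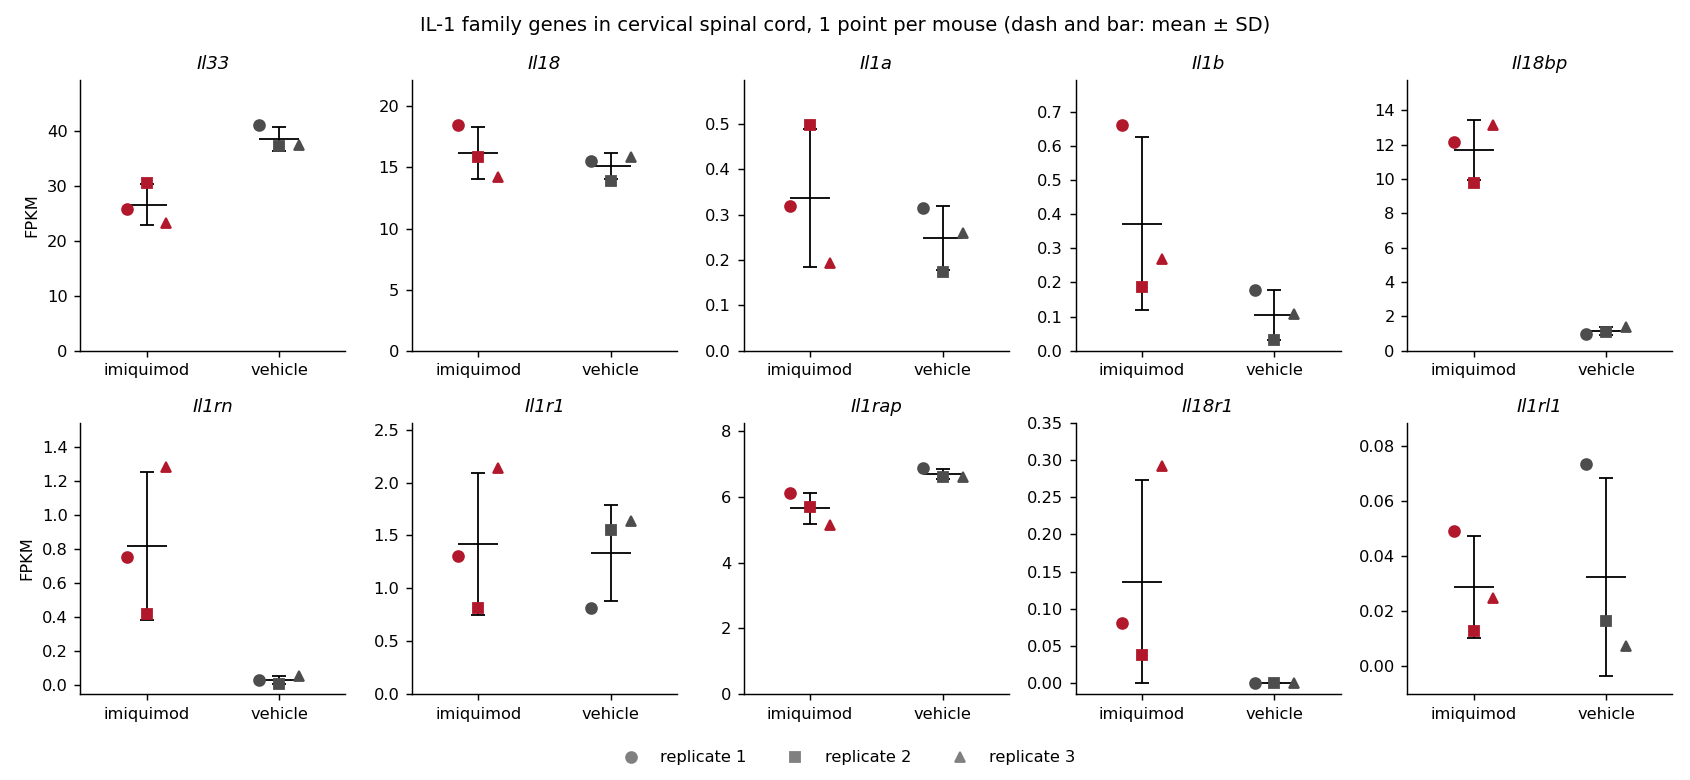
FPKM of the 10 genes in each library, 1 panel per gene with its own linear scale, imiquimod left of vehicle, with the group mean as a line and the SD as a bar (n = 3 each). Il18bp spans 9.75 to 13.2 FPKM in imiquimod and 0.971 to 1.39 FPKM in vehicle cords, and Il33 spans 23.2 to 30.5 and 37.2 to 41.0 FPKM.

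The order of levels was steep. In imiquimod cords it ran Il33, Il18, Il18bp, Il1rap, then Il1r1, and these neighbours did not overlap. From Il1r1 downward, through Il1rn, Il1b, Il1a, Il18r1 and Il1rl1, each neighbour overlapped the next. In vehicle cords the order was Il33, Il18, Il1rap, Il1r1, Il18bp, Il1a, Il1b, Il1rl1, Il1rn and Il18r1, with overlap between Il1r1 and Il18bp and between all neighbours from Il1a to Il1rn. Il18bp was the third in imiquimod and the fifth in vehicle cords. All 3 of its imiquimod values lay above those of Il1rap, whereas all 3 of its vehicle values lay below them.

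Il33, which encodes the alarmin IL-33 (ENSMUSG00000024810, mm10 chromosome 19, 29925114 to 29960718, plus strand), was the most abundant ligand. It stood at 25.8, 30.5 and 23.2 FPKM in imiquimod replicates 1 to 3, against 41.0, 37.2 and 37.4 FPKM in vehicle replicates 1 to 3. The lowest vehicle cord lay above the highest imiquimod cord. The means were 26.5 ± 3.68 FPKM in imiquimod and 38.5 ± 2.17 FPKM in vehicle cords (SD, n = 3 each), and the log2 change was -0.54 ± 0.11 (SE, limma adjusted p = 0.0193). With 5081 fragments in imiquimod and 6072 in vehicle libraries, the ratio was 0.688 (0.663 to 0.714). Without any 1 library the log2 change was -0.65 to -0.45, but the adjusted p was 0.0568 without imiquimod replicate 1, and 0.0839, 0.0596 and 0.0626 without vehicle replicates 1, 2 and 3. Of the 8 oligodendrocyte markers only Opalin was called lower, with a log2 change of -0.63 ± 0.14 (limma adjusted p = 0.0328). For 8 astrocyte markers (1 higher, 2 lower, none at 0) summed FPKM was 901 to 1055 in imiquimod and 948 to 1004 in vehicle cords. The part of either cell type in the lower Il33 was not tested.

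RefSeq lists 2 starts for Il33. The 250 bases before the downstream start are shown because they hold a match to a motif searched in every family promoter, the C/EBP letters TTGCNNAA, in capitals at -85 to -78 from the start (GRCm38.p6 chr19:29945540-29945789, plus strand).
Il33, downstream start: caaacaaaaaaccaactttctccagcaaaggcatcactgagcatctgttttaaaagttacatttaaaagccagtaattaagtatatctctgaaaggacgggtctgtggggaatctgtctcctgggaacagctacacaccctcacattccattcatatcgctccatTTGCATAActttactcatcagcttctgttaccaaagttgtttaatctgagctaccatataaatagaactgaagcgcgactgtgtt
A match to these letters on either strand was found in 10.8% of the 32851 RefSeq windows of 300 bases (250 before and 50 after a start).

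Il18, which encodes the precursor of IL-18 (ENSMUSG00000039217, chromosome 9, 50554827 to 50581840, plus strand), did not pass the test. It stood at 18.5, 15.9 and 14.3 FPKM in imiquimod cords and 15.6, 13.9 and 15.9 FPKM in vehicle cords, and the groups overlapped. The log2 change was 0.09 ± 0.11 (SE, limma adjusted p = 0.588), and it was -0.0035 without imiquimod replicate 1. The fragment ratio, from 1104 in imiquimod and 853 in vehicle libraries, was 1.06 (0.972 to 1.17). Il18 overlaps Bco2 on the opposite strand by 355 bases, and Bco2 was at 1.37 to 1.92 FPKM in imiquimod and 1.15 to 1.57 FPKM in vehicle cords. It also overlaps Tex12 on the opposite strand by 4507 bases, and Tex12 was at 0.191, 0.176 and 0.0839 FPKM in imiquimod cords and at 0 in each vehicle cord. For 10 homeostatic microglia markers (2 higher, 1 lower, none at 0) summed FPKM was 122 to 159 in imiquimod and 110 to 123 in vehicle cords.

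Il1b, the gene of IL-1 beta (ENSMUSG00000027398, chromosome 2, 129364570 to 129371139, minus strand), and Il1a, the gene of IL-1 alpha (ENSMUSG00000027399, 129299610 to 129309972 on the same chromosome and strand), lay too low for the test. Il1b was read with 26, 8 and 12 fragments in imiquimod cords (0.661, 0.188 and 0.268 FPKM) and with 6, 1 and 4 fragments in vehicle cords (0.178, 0.0302 and 0.107 FPKM). The lowest imiquimod value lay just above the highest vehicle value, and the ratio of summed fragments was 3.44 (1.75 to 7.36), or 2.17 without imiquimod replicate 1. Without the filter its log2 change was 1.14 ± 0.47 (SE), which did not pass (limma adjusted p = 0.265). Il1a had 13, 22 and 9 fragments in imiquimod cords and 11, 6 and 10 in vehicle cords, with overlapping groups and a ratio of 1.34 (0.812 to 2.25). Its log2 change without the filter was 0.28 ± 0.36 (SE, limma adjusted p = 0.704). Both genes overlap transcripts on the opposite strand (Il1bos and Gm14023), and reads of the 2 strands cannot be told apart, since no label states the strand setting.

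Summed over the 4 ligands, FPKM was 45.3, 47.1 and 38.0 in imiquimod cords and 57.1, 51.3 and 53.6 in vehicle cords. Il33 made up 57.0%, 64.8% and 61.2% of that sum in imiquimod cords, against 71.9%, 72.5% and 69.7% in vehicle cords. Il18 made up 33.7% to 40.8% in imiquimod and 27.1% to 29.6% in vehicle cords. Il1a and Il1b together were 1.22% to 2.16% of the sum in imiquimod and 0.400% to 0.863% in vehicle cords. Both the ligand sum and the share of Il33 lay lower in every imiquimod cord than in any vehicle cord.

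Il18bp, which encodes the secreted decoy of IL-18 (ENSMUSG00000070427, chromosome 7, 102014885 to 102018690, minus strand), was called higher. It was read with 757, 660 and 934 fragments in imiquimod cords (12.1, 9.75 and 13.2 FPKM), against 52, 57 and 82 fragments in vehicle cords (0.971, 1.08 and 1.39 FPKM). The lowest imiquimod cord lay far above the highest vehicle cord. Mean levels were 11.7 ± 1.74 FPKM in imiquimod and 1.15 ± 0.214 FPKM in vehicle cords (SD, n = 3 each). The log2 change was 3.24 ± 0.16 (SE, limma adjusted p = 2.94e-04), and the fragment ratio was 10.1 (8.73 to 11.8). The call held in all 17 alternative fits, and its adjusted p ran from 9.0e-04 to 0.00456 when 1 library was left out. Il18bp overlaps Numa1 on the opposite strand by 80 bases, and Numa1 was at 12.02 to 15.2 FPKM in imiquimod and 13.4 to 14.0 FPKM in vehicle cords.

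Il1rn, which encodes the IL-1 receptor antagonist (ENSMUSG00000026981, chromosome 2, 24336853 to 24351494, plus strand), was near the floor in vehicle cords. It had 86, 52 and 167 fragments in imiquimod cords (0.753, 0.420 and 1.29 FPKM), against 3, 1 and 6 fragments in vehicle cords (0.0306, 0.0104 and 0.0554 FPKM). The groups did not overlap, and the imiquimod cords varied widely, with replicate 3 highest and replicate 2 lowest. The fragment ratio was 25.1 (13.5 to 52.8), or 40.3 without vehicle replicate 3. As log2(FPKM + 0.1), a scale that shrinks the change of genes near 0, the difference was 2.70 ± 0.52 (SE, limma adjusted p = 0.0184). Its size depends on that scale, from 0.79 with a pseudocount of 1 to 4.31 with 0.01 and 4.53 with voom and TMM factors, all past the threshold. The adjusted p was 0.0674 and 0.091 without imiquimod replicates 1 and 3, and 0.0548 and 0.0512 without vehicle replicates 1 and 2. For 6 monocyte markers (4 higher, none at 0) summed FPKM was 62.8, 24.6 and 81.1 in imiquimod replicates 1 to 3 and 4.25 to 12 in vehicle cords. Of the 4, Ccr2 had a vehicle mean below the filter and entered the test only through the imiquimod group. Of 14 marker lists, 5 had the order of Il1rn among the imiquimod cords, those of monocytes, border macrophages, T and NK cells, mast cells and meningeal fibroblasts. An order of 3 libraries is easily matched, and no background for it was taken. Il18bp, Il1r1 and Il18r1 had the same order as Il1rn, so the match of these lists to them is no separate observation. Between groups the 6 border macrophage markers went the other way from Il1rn (3 lower, none higher), with summed FPKM of 1.46 to 7.01 in imiquimod and 7.68 to 12.5 in vehicle cords. For 9 neutrophil markers (6 tested, 1 higher, none at 0 throughout) summed FPKM was 23.6 to 34.2 in imiquimod and 21.6 to 80.8 in vehicle cords. Their part in the Il1rn change was not tested.

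**Figure D2:**
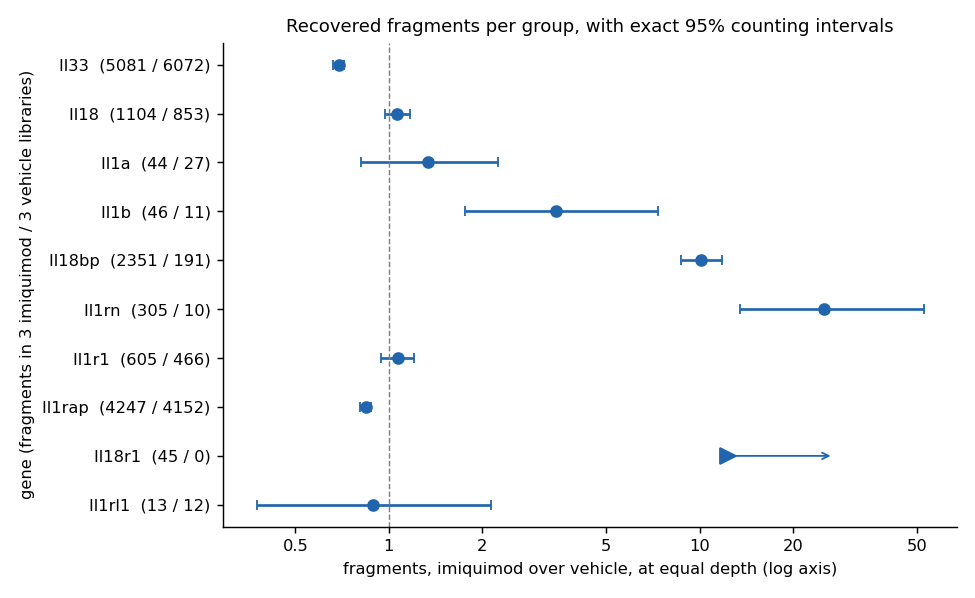
Ratio of recovered fragments, imiquimod over vehicle at equal depth, on a log axis for each of the 10 genes, with exact 95% intervals that cover counting error only and the summed fragments in parentheses. Il1rn (25.1) and Il18bp (10.1) lie far right of 1, Il18r1 (45 fragments in imiquimod, 0 in vehicle) is drawn as an arrow from its bound at a floor of 3 fragments over the vehicle group, and Il33 (0.688) and Il1rap (0.841) lie left of 1.

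Promoter windows of the 2 genes that rose are shown where they hold a match to a searched motif before the start. Capitals mark a match to C/EBP (TTGCNNAA) at -49 to -42 in Il18bp, to AP-1 (TGANTCA) at -141 to -135 before the upstream Il1rn start, and to NF-kB (GGGNNTTTCC) at -51 to -42 before the most downstream Il1rn start. The sequences are RefSeq windows on GRCm38.p6, cut to the 250 bases before the start: chr7:102018233-102018482, minus strand, then chr2:24336610-24336859 and chr2:24345121-24345370, plus strand.
Il18bp: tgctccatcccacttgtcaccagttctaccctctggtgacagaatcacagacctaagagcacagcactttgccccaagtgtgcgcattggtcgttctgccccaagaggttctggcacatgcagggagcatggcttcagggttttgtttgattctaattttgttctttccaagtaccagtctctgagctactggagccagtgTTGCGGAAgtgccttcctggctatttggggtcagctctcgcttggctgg
Il1rn, upstream start: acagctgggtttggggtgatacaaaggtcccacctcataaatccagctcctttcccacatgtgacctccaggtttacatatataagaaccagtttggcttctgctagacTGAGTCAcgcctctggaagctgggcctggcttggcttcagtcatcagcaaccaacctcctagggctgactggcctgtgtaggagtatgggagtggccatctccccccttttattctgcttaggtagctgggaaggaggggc
Il1rn, downstream start: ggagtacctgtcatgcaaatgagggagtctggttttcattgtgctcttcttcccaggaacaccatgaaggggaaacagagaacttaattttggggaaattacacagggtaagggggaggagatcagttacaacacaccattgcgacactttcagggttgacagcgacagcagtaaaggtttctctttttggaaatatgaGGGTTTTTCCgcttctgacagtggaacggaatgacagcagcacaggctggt
On both strands and over all 32851 windows, the AP-1 letters were found in 7.81% and the NF-kB letters in 1.63%. All 10 genes had a window, 17 in all. IRF letters (GAAANNGAAA, 3.44% of all windows) matched only in Il1rap, and STAT letters (TTCNNNGAA, 8.30%) only in Il18r1, with 2 matches before 1 start. The NF-kB match also lies in the window of another Il1rn start, just upstream of the one shown, and otherwise no matches overlapped. AP-1 letters also matched in Il1a, and C/EBP letters in Il1r1 and Il1rl1. PU.1 letters (GAGGAAGT, 3.20%) matched in no window of the 10 genes. The 2 genes that rose shared no motif among the 6 searched, which describes these letters in these windows and nothing about the factors. The Il18bp window starts from the RefSeq start, inside the longer GENCODE gene.

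Set against their partners within each library, the decoys and antagonists stood higher in every imiquimod cord. The FPKM ratio of Il18bp to Il18 was 0.656, 0.614 and 0.922 in imiquimod cords and 0.0624, 0.0780 and 0.0873 in vehicle cords, a difference of 3.26 on the log2 scale or 9.57-fold. Il18 stayed above Il18bp in all 6 cords, and the gap was narrower in each imiquimod cord than in any vehicle cord. Il1rn over the sum of Il1a and Il1b was 0.768, 0.612 and 2.78 in imiquimod cords and 0.0622, 0.0507 and 0.151 in vehicle cords. That difference was 3.81 on the log2 scale, 14.0-fold, and it was 3.13 on the log2 scale without imiquimod replicate 3 and 1.87 with 0.1 FPKM added to both terms. Its vehicle values rest on 3, 1 and 6 fragments of Il1rn. Il1r2, which encodes the decoy receptor for IL-1 and is not among the 10 genes, stood at 0.741, 0.406 and 0.512 of Il1r1 in imiquimod cords and 0.147, 0.233 and 0.131 in vehicle cords, 3.25-fold. The levels of Il1r2 and of Il1r1 each overlapped between groups, and neither gene passed its own test (limma adjusted p = 0.119 and 0.953). The groups did not overlap for any of these 3 ratios. Each had a two-sided exact permutation p of 0.1, the smallest that 3 against 3 can give, and 0.133 after adjustment over the 4 ratios tested, so none could pass. The ratio of Il1rl1 to Il33 overlapped between groups (two-sided exact permutation p = 0.5).

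**Figure D3:**
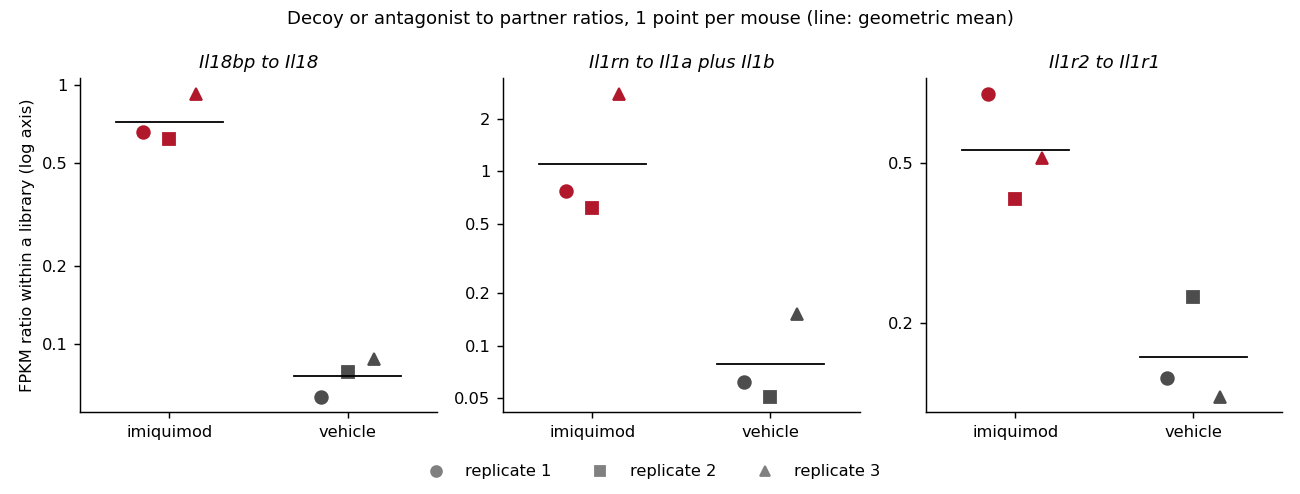
FPKM ratios within each library on log axes, imiquimod left of vehicle, 1 point per mouse and the geometric mean as a line. Il18bp to Il18 is 0.614 to 0.922 in imiquimod and 0.0624 to 0.0873 in vehicle cords, and neither of the other ratios overlaps between groups.

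Among the receptor chains none passed the test. Il1rap, the shared accessory chain (ENSMUSG00000022514, chromosome 16, 26581704 to 26730117, plus strand), was the most abundant at 6.10, 5.68 and 5.15 FPKM in imiquimod cords and 6.87, 6.60 and 6.60 FPKM in vehicle cords. The groups did not overlap. The log2 change was -0.24 ± 0.08 (SE, limma adjusted p = 0.0926), and the fragment ratio 0.841 (0.806 to 0.878), from 4247 fragments in imiquimod and 4152 in vehicle libraries. With voom and sample quality weights it passed, at -0.25 (adjusted p = 0.039).

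Il1r1, the signalling receptor of IL-1 (ENSMUSG00000026072, chromosome 1, 40225080 to 40317257, plus strand), varied widely within both groups. It stood at 1.30, 0.808 and 2.14 FPKM in imiquimod cords and 0.808, 1.55 and 1.63 FPKM in vehicle cords. The log2 change was 0.04 ± 0.38 (SE, limma adjusted p = 0.953), and it turned to -0.26 without vehicle replicate 1 and -0.28 without imiquimod replicate 3. For 7 meningeal fibroblast markers (6 tested, none called or at 0) summed FPKM was 70.5, 28.8 and 136 in imiquimod replicates 1 to 3, and 70.8, 110 and 76.6 in vehicle replicates 1 to 3. For 7 endothelial markers (4 higher, 1 lower, none at 0) it was 142 to 155 in imiquimod and 82.1 to 86.3 in vehicle cords. The same 5 lists as for Il1rn had the order of Il1r1 among the imiquimod cords. Their part in the spread of Il1r1 was not tested.

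Il18r1, the IL-18 binding chain (ENSMUSG00000026070, chromosome 1, 40465552 to 40500854, plus strand), was read only in imiquimod cords. It had 8, 4 and 33 fragments in imiquimod replicates 1 to 3 and 0 in each vehicle cord. A count of 0 allows up to 3 fragments over the vehicle group. Against that floor Il18r1 was 12.3-fold higher, with no error taken in the imiquimod count. The exact 95% interval of the ratio, which covers both counts, began at 9.63. Without the filter the log2 change of Il18r1 was 1.09 ± 0.39 (SE), which did not pass (limma adjusted p = 0.193). The bound from the floor was 5.09 without imiquimod replicate 3, which holds most of the fragments, and 7.92 without vehicle replicate 3. Il18rap, the second chain of the IL-18 receptor, was also too low for the test. It had 133 fragments in imiquimod and 12 in vehicle libraries, a ratio of 9.11 (5.05 to 18.1), and stood at 0.280, 0.179 and 0.423 FPKM in imiquimod cords and 0.0167, 0.0426 and 0.0379 FPKM in vehicle cords. For 12 T and NK cell markers (7 tested, 6 higher, none at 0 throughout) summed FPKM was 43.5, 22.5 and 49.9 in imiquimod replicates 1 to 3, and 3.29 to 4.63 in vehicle cords. Of the 6, Trbc1, Gzmb, Klrb1c and Ncr1 had a vehicle mean below the filter and entered the test only through the imiquimod group. The same 5 lists as for Il1rn had the order of Il18r1 among the imiquimod cords. Their part in these values was not tested.

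Il1rl1, the receptor of IL-33 (ENSMUSG00000026069, chromosome 1, 40429570 to 40465415, plus strand), was close to the floor in both groups. It had 7, 2 and 4 fragments in imiquimod cords and 9, 2 and 1 in vehicle cords, and the ratio of 0.891 (0.375 to 2.14) became 2.41 without vehicle replicate 1. A difference was not detectable at this depth. Of 7 mast cell markers (1 tested, none called), Mcpt4 and Tpsb2 were at 0 in all 6 libraries, and the summed FPKM of 2.54 to 3.32 in imiquimod and 2.33 to 2.69 in vehicle cords came almost wholly from Kit. Il1rl1 ends 136 bases before Il18r1 begins on the same strand.

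The other genes of the pathway were taken as 75 genes in 7 lists, of which 46 were tested. Of these 17 were called higher and none lower, against 8.74% and 5.34% of all genes, and the median log2 change of the 46 was 0.64 against -0.01 over all genes tested. The lists were chosen with earlier results of these data known, so this comparison is a description and not independent support. Of the 17, 5 (Casp4, Bcl3, Ccl2, Saa3 and Il12b) had a vehicle mean below the filter and entered only through the imiquimod group. With no filter 73 were tested and 13 were called higher, 17.8% against 3.4% of all genes, and none lower. At an unadjusted limma p under 0.05 in the filtered fit, 26 were higher and 3 lower. No share of all genes is given at that threshold, so these 2 counts have no background. Voom with TMM factors called 18 pathway genes higher and none lower, against 1545 higher and 1036 lower among all 16503 genes in that fit. With limma the pathway count was 10 without imiquimod replicate 1 or vehicle replicate 1, beside 923 and 660 higher among all genes. It was 11 without imiquimod replicate 3, vehicle replicate 2 or vehicle replicate 3, beside 834, 770 and 758. Without imiquimod replicate 2 it was 23, beside 1690, and the main fit had 17 beside 1444. By list, 5 of 8 tested inflammasome genes, 8 of 15 response genes and 2 of 17 signalling genes were called.

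**Figure D4:**
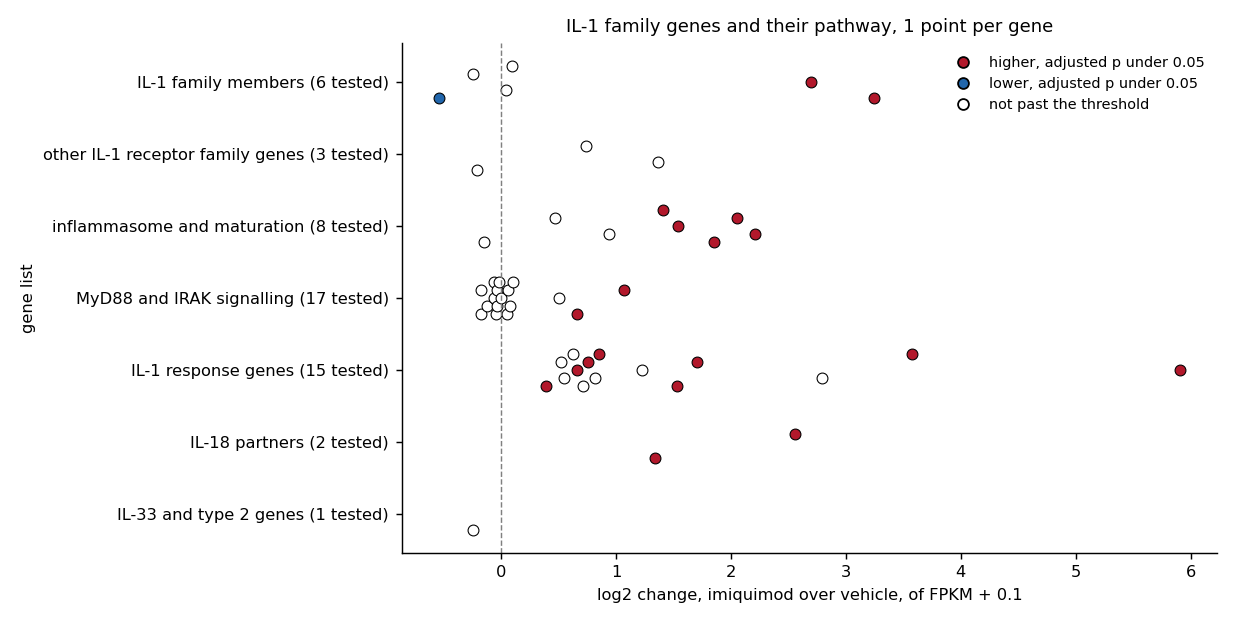
Fitted log2 change, imiquimod over vehicle, of each tested gene in the IL-1 pathway lists, with 1 row per list and coloured points for genes called. Inflammasome genes (5 of 8 called) and response genes (8 of 15) lie mostly right of 0, and the signalling genes (2 of 17) cluster around 0. Over all genes tested, 8.74% were called higher.

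Of 12 inflammasome and maturation genes, 8 were tested and 5 were higher, against 8.74% of all genes tested. Of the 5, Casp4 entered the test only through the imiquimod group. Pycard, the adaptor that joins sensors to caspase-1, averaged 2.64 ± 0.507 FPKM in imiquimod and 0.559 ± 0.104 FPKM in vehicle cords (SD, n = 3 each), a log2 change of 2.05 ± 0.20 (SE, limma adjusted p = 0.00196). Casp1, the protease that cuts pro-IL-1 beta and pro-IL-18, stood at 8.97, 5.53 and 6.40 FPKM in imiquimod cords and 1.51, 1.77 and 2.25 FPKM in vehicle cords. Its log2 change was 1.85 ± 0.21 (SE, limma adjusted p = 0.00320). Casp4, the caspase of the noncanonical inflammasome, changed by 2.21 ± 0.32 and Casp8 by 1.54 ± 0.16 on the log2 scale. Gsdmd, which forms the pore through which mature IL-1 beta leaves the cell, changed by 1.41 ± 0.23. The DNA sensor Aim2, at 0.47 ± 0.16 (limma adjusted p = 0.104), and Nek7, a partner of the sensor NLRP3, at -0.15 ± 0.06 (limma adjusted p = 0.155), did not pass.

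Of 17 MyD88 and IRAK signalling genes, all tested, Myd88 and Irak4 were higher, a share of 11.8% that lies near the 8.74% of all genes called higher. Myd88, the adaptor of IL-1 and Toll-like receptors, stood at 6.63, 4.20 and 6.37 FPKM in imiquimod cords and 2.59, 2.61 and 2.66 FPKM in vehicle cords, a log2 change of 1.07 ± 0.17 (SE, limma adjusted p = 0.010). Irak4, the first kinase of the chain, changed by 0.66 ± 0.15 (SE, limma adjusted p = 0.0334), and its call was lost with no filter (0.0733) and without any 1 library except imiquimod replicate 2 (0.0633 to 0.108). Over the 6 fits without 1 library the change was 0.58 to 0.75. Ube2n and Tollip, the most abundant of the list, did not pass: Ube2n was at 49.1 ± 3.02 FPKM in imiquimod and 55.4 ± 0.787 FPKM in vehicle cords, and Tollip at 32.3 ± 0.0688 and 33.2 ± 0.650 FPKM (SD, n = 3 each). Over these 17 genes the median log2 change was -0.02.

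Of 23 genes known to respond to IL-1, 15 were tested and 8 were higher, against 8.74% of all genes tested. Such genes also respond to other inflammatory signals. Of the 8, Ccl2, Bcl3 and Saa3 entered the test only through the imiquimod group. Ccl2, a monocyte chemoattractant, stood at 8.52, 2.71 and 9.10 FPKM in imiquimod cords and 0.596, 0.354 and 0.315 FPKM in vehicle cords, a log2 change of 3.58 ± 0.47 (SE, limma adjusted p = 0.00515). The adhesion molecules Icam1 and Vcam1 changed by 1.71 ± 0.25 and 0.85 ± 0.12, and Bcl3, a nuclear partner of NF-kB, by 1.53 ± 0.21 on the log2 scale. Nfkbia, the inhibitor of NF-kB, did not pass at 28.7 ± 6.95 FPKM in imiquimod and 19.6 ± 1.53 FPKM in vehicle cords (SD, n = 3 each; limma adjusted p = 0.0795). Lcn2, an iron-binding acute phase protein, ranged from 2.97 to 20.4 FPKM in imiquimod and from 0.495 to 2.98 FPKM in vehicle cords and did not pass (limma adjusted p = 0.0630). Without imiquimod replicate 2, the lowest of its group, both were called (limma adjusted p = 0.0267 for Nfkbia and 0.0229 for Lcn2). In that fit 1690 genes were called higher over all, against 1444 in the main fit. Neither gene was called when any other library was left out.

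Of 7 partners of IL-18, the genes of IL-12 and of interferon gamma among them, only Il12b and Il12rb1 were tested. Both were higher, against 8.74% of all genes tested, and Il12b entered the test only through the imiquimod group. Il12b, the shared p40 chain of IL-12 and IL-23, had 94 fragments in imiquimod and 4 in vehicle libraries, a ratio of 19.3 (7.30 to 72.4), and changed by 2.56 ± 0.51 (SE, limma adjusted p = 0.0211). Il12rb1, a receptor chain of both cytokines, stood at 2.73, 2.26 and 2.77 FPKM in imiquimod cords and 0.647, 1.54 and 0.872 FPKM in vehicle cords, a change of 1.34 ± 0.28 (SE, limma adjusted p = 0.0253). Both calls were lost in several fits without 1 library, although over the 6 such fits the log2 change was 2.22 to 2.73 for Il12b and 1.08 to 1.65 for Il12rb1. Without imiquimod replicate 1 or 3 the adjusted p was 0.0897 or 0.0602 for Il12b and 0.075 or 0.0784 for Il12rb1. Without vehicle replicates 1, 2 and 3 it was 0.054, 0.0545 and 0.0514 for Il12b, and for Il12rb1 it was 0.0661 and 0.0873 without vehicle replicates 1 and 3 and 0.0531 with no filter. Of 5 genes of the type 2 response, which IL-33 can evoke, only Il4 was tested. It stood at 8.64 ± 0.417 FPKM in imiquimod and 10.3 ± 0.449 FPKM in vehicle cords (SD, n = 3 each) and did not pass (limma adjusted p = 0.0577). Il4 ends 1014 bases from Kif3a, which was at 22.8 to 27.8 FPKM in imiquimod and 29.3 to 31.0 FPKM in vehicle cords. Il5 and Il13, the neighbouring type 2 cytokines, were at most 0.0582 and 0.0805 FPKM in any library, and whether the fragments counted for Il4 are Il4 transcripts was not tested.

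Of 6 other receptor genes of the family, 3 were tested and none passed, and none was called by voom with TMM factors. At an unadjusted limma p under 0.05, 2 were higher, with no share of all genes given at that threshold. The decoy receptor Il1r2 stood at 0.966, 0.328 and 1.09 FPKM in imiquimod cords and 0.118, 0.362 and 0.214 FPKM in vehicle cords (log2 change 1.37 ± 0.50, limma adjusted p = 0.119). Sigirr, an inhibitory receptor of the family, averaged 1.52 ± 0.317 FPKM in imiquimod and 0.870 ± 0.178 FPKM in vehicle cords (SD, n = 3 each; limma adjusted p = 0.0630). Il1rapl1, a neuronal synaptic receptor, was at 0.692 ± 0.147 FPKM in imiquimod and 0.811 ± 0.131 FPKM in vehicle cords (SD, n = 3 each; limma adjusted p = 0.575). None of the 5 other ligand genes of the family, those of IL-36 with its antagonist and of IL-38, reached the test, and 2 of them were at 0 in all 6 libraries. For 6 keratinocyte markers (3 tested, 1 lower, 1 at 0 throughout) summed FPKM was 9.75 to 12.3 in imiquimod and 11.1 to 11.9 in vehicle cords.

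The genes most like each called gene across the 6 libraries were ranked by Pearson r of log2(FPKM + 0.1), a description of points that share libraries and a group difference. For Il18bp these were Naip2 (0.9996), Apod (0.9994) and Cxcl13 (0.9992), and 824 genes had r above 0.95. Naip2 has close paralogues that can share reads. Cxcl13, a B cell chemoattractant, was at 11.9, 8.17 and 15.4 FPKM in imiquimod cords and at 0, 0 and 0.0445 FPKM in vehicle cords. Apod, which encodes a lipid carrier, stood at 862 to 1093 FPKM in imiquimod and 236 to 291 FPKM in vehicle cords. For Il1rn they were Lig1 (0.9993), Grk6 (0.9982) and Alox5ap (0.9977), with 657 genes above 0.95. For Il33 they were Pls1 (0.9995), Enpp6 (0.9992) and Gabra2 (0.9981), with 554 above 0.95. Enpp6, a marker of newly formed oligodendrocytes, stood at 8.48, 10.2 and 7.52 FPKM in imiquimod cords and 13.7, 12.2 and 12.6 FPKM in vehicle cords. Its likeness to Il33 across libraries is the reason it is named and adds no separate evidence.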

How the data were processed

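RNA of the cervical cord of 3 imiquimod and 3 vehicle mice was sequenced. Tissue was flash frozen and RNA taken up in TRIzol, per the labels' protocols. The deposited values are 1 FPKM per gene and library, made by the authors. The submitters' processing notes name DESeq2 1.16.1, HISAT2 2.0.5, featureCounts 1.5.0-p3 and the mm10 build, with no role for any. How strand and multi-mapped reads were handled, and which annotation was used, is not given in the sources used here.

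Symbols came from a names table (54409 of 54532 identifiers matched) and exon lengths from GENCODE M21 on the same assembly (54495 matched). FPKM times exon length fell on whole fragments, within 0.05, for 97.4% to 97.6% of values under 1000 fragments per library, and for all 10 family genes in every library. The FPKM already had median-of-ratios factors of 1, an inference that they were scaled so before deposit. The files hold FPKM, so a count test was not used as the main test, and voom on the recovered fragments was an alternative.

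The test was limma 3.58.1 in R 4.3.3 on log2(FPKM + 0.1), its prior variance following the mean level, for genes whose mean reached 0.5 FPKM in one group or both. Other steps used SciPy 1.17.1, NumPy 2.4.6, pandas 2.3.3 and matplotlib 3.10.9 in Python 3.11.15. The fit was also run on simulated data with little spread between libraries, changing only genes whose mean lay above the filter. That run does not cover low and variable genes such as Il1rn. Alternatives were other pseudocounts, filters, scalings, weights, a length and GC correction, a replicate block and leaving out each library. The family genes, the gene and marker lists, the motifs and the tests were chosen with earlier results of these data known. Besides all 10 family genes, named genes were up to 4 called genes with the smallest p and up to 2 genes not called with the highest mean FPKM per list, and the 3 genes most like each called family gene. A looser NF-kB pattern, found in 50.8% of promoter windows, was also searched and not used. Opalin, Gsdmd, Saa3, Il5, Il13, Il18rap, Il1r2 and the overlapping or neighbouring genes were named after their values were seen. Each library is a separate mouse per the labels, and no 2 libraries held identical values.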

Additional observations from a re-analysis of the deposited data

How the results depend on the processing

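Il18bp was called higher under every alternative run. Il1rn and Il33 were called under every alternative that tested them except in 4 of the 6 fits that left out 1 library, for each gene. Over those 6 fits the log2 change was 2.35 to 3.05 for Il1rn and -0.65 to -0.45 for Il33. With a minimum mean FPKM of 1, Il1rn was not tested and 1 family gene was called higher, and with voom quality weights 2 family genes were called lower. Leaving out 1 library gave 1 to 2 family genes higher and 0 to 1 lower, 10 to 23 other pathway genes higher, and 660 to 1690 genes higher and 187 to 1296 lower over all. Without the filter 508 genes were lower over all. With length and GC trends removed the split was 1258 higher and 1544 lower against 1444 and 882, and 2 other pathway genes were lower. No scaling moved the median of all genes by over 0.1.

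Leaving out 1 library, Il18 ran from -0.0035 (without imiquimod replicate 1) to 0.18. Il1r1 was -0.0217 with voom quality weights, ran up to 0.37 without imiquimod replicate 2, and turned to -0.26 without vehicle replicate 1 and -0.28 without imiquimod replicate 3. Across the fits that left out 1 library, fragment ratios ran 0.635 to 0.734 for Il33, 0.780 to 1.30 for Il1r1, 0.596 to 2.41 for Il1rl1 and 0.809 to 0.880 for Il1rap. For Il18r1 the bound from the floor ran 5.09 to 16.9. The cause of each was not tested.

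Same-numbered samples did not deviate together (correlations 0.0186, -0.0970 and -0.0331), and not every sample correlated best with its own number, so the numbers were not taken as pairs. With a replicate block the family calls were 2 higher and 1 lower, with adjusted p of 0.00214 for Il18bp, 0.0479 for Il1rn and 0.042 for Il33, other pathway genes 11 higher (Il12b at 0.0581, Il12rb1 at 0.0561 and Irak4 at 0.0853 no longer passed), and all genes 894 higher and 436 lower. Few fragments limit Il1a and Il1rl1, whose counting intervals include 1. Unstated strand and multi-match settings limit genes that overlap others.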
